A study of Mus musculus with 4 samples.

Results

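The comparison described here set the lower (mandibular) molar against the upper (maxillary) molar in mouse embryos that lack Bmp4 in the tooth mesenchyme. It rests on 2 of the 4 RNA sequencing libraries of the study, the mutant lower and the mutant upper molar, chosen by their labels. The other 2, the control lower and control upper molar, gave the same comparison in tissue with Bmp4 and shared no library with it. All 4 held molar mesenchyme of embryonic day 13.5, taken from frozen head sections by laser capture microdissection, which cuts chosen tissue out of a section. The mutant (Bmp4f/f;Wnt1Cre) carried floxed alleles of Bmp4 and a Cre recombinase under the Wnt1 promoter, which is active in the neural crest, the source of tooth mesenchyme. The control (Bmp4f/+) carried 1 floxed allele, and its label names no Wnt1-Cre, so effects of the Cre transgene and of Bmp4 loss cannot be told apart. Both genotypes were on a mixed background. Each library was a pool, from 3 pairs of control and mutant samples by the series description, and it is not stated whether the embryos that gave the upper molars also gave the lower ones.

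Upper and lower molars form in jaws that arise from different parts of the first pharyngeal arch. Position in the arch is read from transcription factors of the neural crest, with Dlx1 and Dlx2 in both jaws, Dlx5 and Dlx6 in the lower jaw, Pitx1 mainly in the lower jaw and Pou3f3 mainly in the upper jaw. Bmp4 is a secreted ligand that the dental mesenchyme sends to the epithelium and that acts with the transcription factor Msx1, while Osr2 and secreted Wnt inhibitors such as Dkk2 and Sfrp2 restrain tooth growth. In this mutant the lower molars are known to stop at the bud stage while the upper molars go further, and the comparison shows how the mesenchyme of the 2 sites differed.

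Levels are in FPKM, fragments per kilobase of transcript corrected for sequencing depth, added up per gene. Differences are lower minus upper on the log2(FPKM + 1) scale, so a positive value means more RNA in the lower molar and a value of 1 means 2-fold, and the added 1 makes the change of weakly expressed genes look smaller. Depth was between about 4820000 and 5550000 reads on transcripts per library, and 3 reads on a 2 kb transcript would give between 0.101 and 0.1145 FPKM in 3 libraries and 0.115 in the control lower molar. Of 22072 gene symbols, 10388 averaged at least 1 FPKM over the mutant pair, with a transcript of at least 300 bases and no failed estimate. With 1 library a side the mutant difference has no replicate check and no p-value, and its counting SE, given where used, covers read sampling only. The test available was limma on all 4 libraries with terms for molar and genotype, whose 1 residual degree of freedom is the disagreement of the molar difference between genotypes, joined by a prior of 8.22 degrees of freedom from other genes. That test includes the mutant libraries and measures no spread between embryos. In pooled tissue, fewer cells of a type and less RNA per cell cannot be told apart.

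The captured tissue carried the genes that define dental mesenchyme. The mutant lower library had 98.4 FPKM of Msx1, 108 of Pax9, 77.8 of Lhx6, 88.3 of Lhx8 and 62.7 of Barx1, and the mutant upper library had 135, 74.9, 107, 88.3 and 118 FPKM in the same order. Markers of dental and oral epithelium were low, with 5 of 20 above the filter, a summed level of 27.1 FPKM in the mutant lower and 27.6 in the mutant upper library (26.2 and 25.2 in the controls), and Fgf20 at 0 in all 4. Bmp4 itself had 4.90 FPKM in the mutant lower and 4.75 in the mutant upper molar, against 27.2 and 24.8 in the controls. The residual Bmp4 signal was thus about the same in both mutant molars (difference 0.04, counting SE 0.14).

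Between the mutant molars, 50 genes were at least 2-fold higher in the lower molar (0.481% of the 10388) and 47 at least 2-fold higher in the upper molar (0.452%). In the control pair the same genes gave 32 (0.308%) and 25 (0.241%). Genes higher in the lower molar by any amount were 36.6% in the mutant and 49.4% in the control pair, and those higher in the upper molar 63.4% and 50.6%; the median difference over all genes was -0.07 in the mutant and near 0 in the control (-0.002). Rescaling by median ratios moved the mutant median to 0.002 and left 57 genes 2-fold higher in the lower and 41 in the upper molar. The middle 95% of differences ran from -0.71 to 0.59 at 1 to 2 FPKM and from -0.54 to 0.49 at 20 to 100 FPKM. The line at 2-fold cut through a continuous range: Alpl (1.001) and Vstm2a (1.01) lay just inside it and Pgm5 (0.99) and Sparc (0.98) just outside, and on the upper side Dlx2 (-1.01) and Shisa2 (-1.01) lay inside and Gdf10 (-0.99) and Ptx3 (-0.98) outside.

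**Figure D1:**
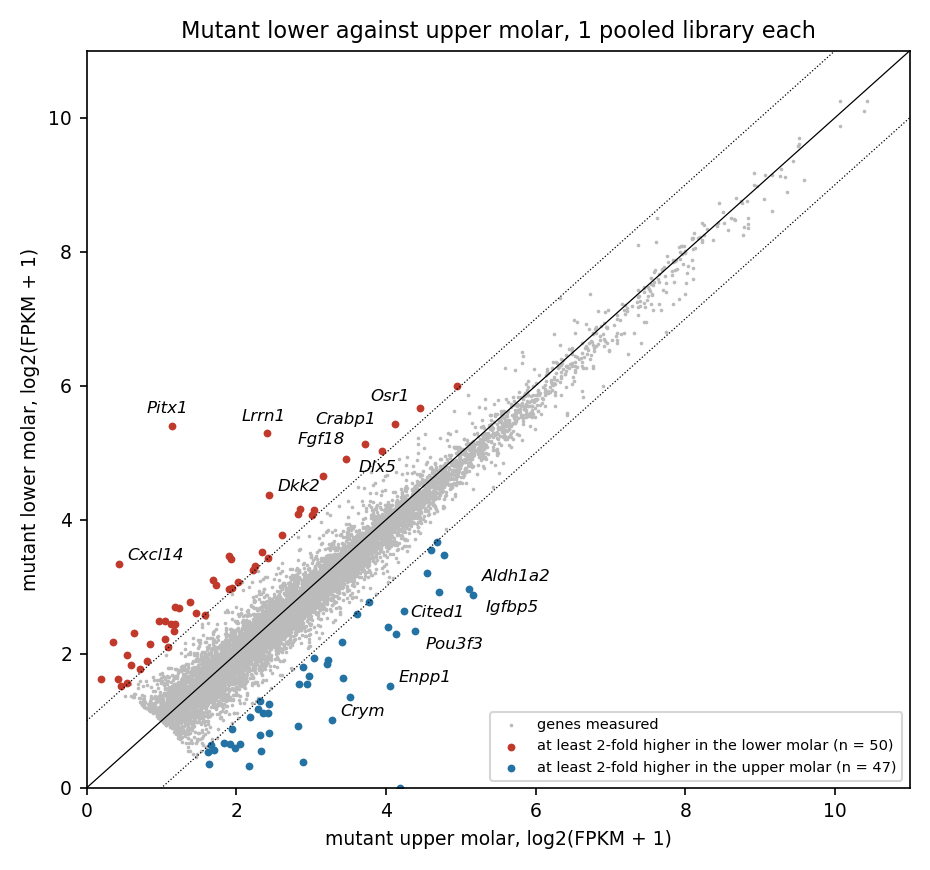
Level of each gene in the mutant upper molar (x axis) and the mutant lower molar (y axis), both as log2(FPKM + 1), with 1 pooled library each. Dotted lines mark a 2-fold difference; 50 genes (red) lie above the upper line and 47 (blue) below the lower line, with Pitx1, Lrrn1 and Cxcl14 furthest toward the lower molar and no gene above 100 FPKM past either line.

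The molar differences of the mutant were mostly present, and smaller, in the control. Of the 50 genes 2-fold higher in the mutant lower molar, 49 differed in the same direction in the control pair, 18 by 2-fold or more, and the median difference was 1.26 in the mutant and 0.88 in the control. Of the 47 higher in the mutant upper molar, 41 did so in the control, 16 of them 2-fold, with medians of -1.32 and -0.78. Since these genes were picked for their mutant difference, a smaller control value is in part built in and was given no test. Past 2-fold either way lay 97 genes in the mutant pair (0.934%) and 57 in the control pair. Of these, 34 genes passed 2-fold in both pairs in the same direction and none in opposite directions, which is 35.1% of the mutant and 59.6% of the control genes. Over both genotypes, limma called 70 genes higher in the lower molar (0.674% of 10383 tested) and 71 higher in the upper molar (0.684%), at adjusted p under 0.05. The mutant-pair genes were picked by a difference that this test also uses, so their share of calls is in part built in. Of those it could test, limma called 33 of 47 on the lower side and 29 of 46 on the upper side. Over all genes tested, the 70 and 71 calls fell to 50 and 32 after rescaling by median ratios. They fell much further when either lower library was left out. Of 52 named genes called, 16 were not called after rescaling, among them Gpr25, Ebf1, Tbx18, Gas1, Alpl and Sparc on the lower side and Enpp1, Figf, Id3, Id4, Rarb, Sox9 and Foxf2 on the upper side.

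**Figure D2:**
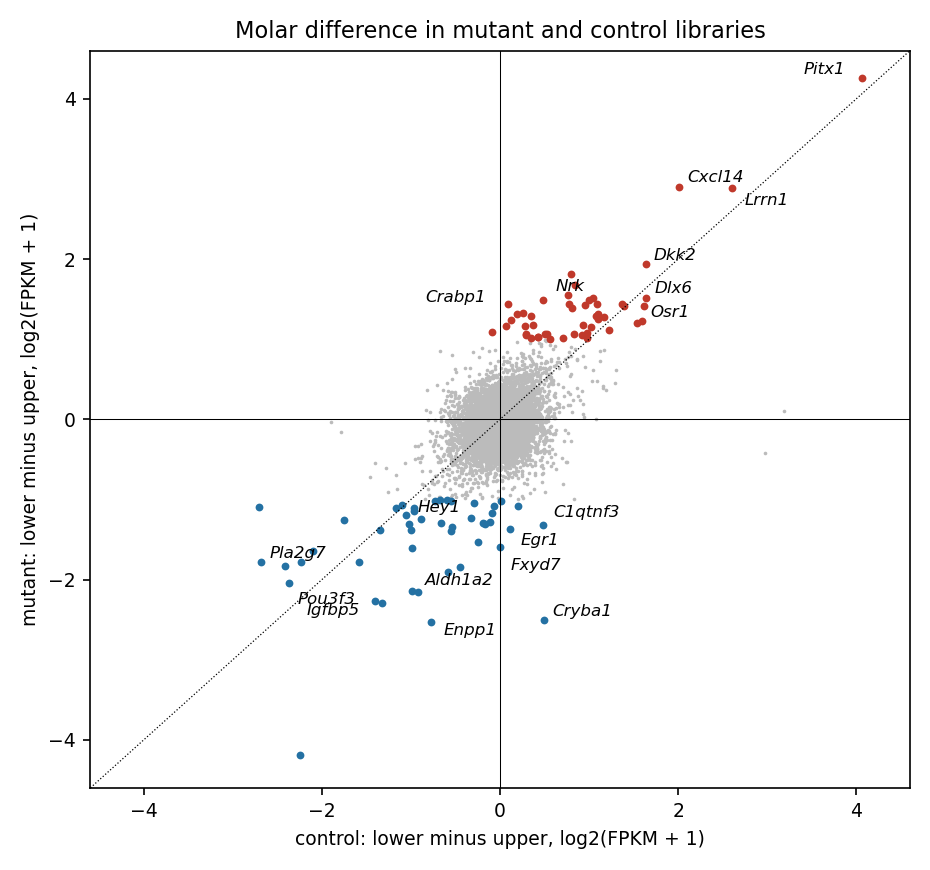
Lower minus upper difference in the control pair (x axis) and in the mutant pair (y axis), log2(FPKM + 1), for 10388 genes; red and blue mark the 50 and 47 genes at least 2-fold apart in the mutant pair and the dotted line marks equal differences. Pitx1, Lrrn1, Dkk2 and Dlx6 lie near that line, Crabp1 and Nrk stand above it at control values of 0.19 and 0.48, and Cryba1, C1qtnf3 and Egr1 lie on opposite sides of 0 in the genotypes.

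Among transcription factors of jaw position, Pitx1, Dlx5 and Dlx6 were higher in the lower and Pou3f3 and Dlx2 in the upper molar. Pitx1, a homeobox factor of the lower jaw and hindlimb (chromosome 13, 55926415 to 55932786, mm9), had 41.3 FPKM in the mutant lower and 1.204 in the mutant upper molar, against 30.2 and 0.862 in the controls. Both lower libraries were thus far above both upper ones, with a 34.3-fold ratio and a difference of 4.26 (counting SE 0.12) in the mutant and 4.07 in the control. limma gave 4.16 ± 0.12 (SE) over both genotypes, adjusted p = 3.49e-07. Dlx5 had 28.9 FPKM in the mutant lower and 10.1 in the mutant upper molar (controls 39.2 and 14.6). Its neighbour Dlx6 had 5.47 and 1.26 FPKM (6.76 and 1.49). The mutant differences were 1.44 for Dlx5 and 1.52 for Dlx6, close to the control values of 1.37 and 1.64, and limma called both (adjusted p = 0.000341 each). On mm9 Dlx6 spans 6813334 to 6817970 and Dlx5 6827805 to 6832068 of chromosome 6. The antisense gene Dlx6os1 (6770546 to 6819533) overlaps Dlx6, and as the strand setting of the counting is not given in the sources used here, reads of this pair cannot be told apart. Dlx6os1 had 2.09 FPKM in the mutant lower and 0.336 in the mutant upper molar.

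Pou3f3, a POU factor of the upper jaw, went the other way. It had 4.09 FPKM in the mutant lower and 19.98 in the mutant upper molar, and 2.56 and 17.4 in the controls. Both upper libraries exceeded both lower ones, with differences of -2.04 (counting SE 0.10) and -2.37, and limma gave -2.21 ± 0.12 (SE), adjusted p = 6.52e-05. Dlx2, which acts in both jaws, had 11.7 FPKM in the mutant lower and 24.6 in the mutant upper molar (controls 18.7 and 28.8), a difference of -1.01 against -0.60 (limma, adjusted p = 0.0173). Dlx1, beside it on chromosome 2, differed less, by -0.46 and -0.38, and was not called (limma, adjusted p = 0.127). Hand1 was listed at 0 in every library and Hand2 had 0.0532 FPKM in the mutant lower molar and 0 elsewhere. These 2 are factors of the distal lower jaw, and the level of Hand2 was under that of 3 reads on a 2 kb transcript.

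The promoters of Pou3f3 and of 2 genes of the lower side, Dkk2 and Lrrn1, are shown as examples of each side that limma called in both genotypes together and for which the RefSeq table held a promoter. They do not have the largest differences of their side in every measure, and Lrrn1 was added after its values were seen. Each runs 5′ to 3′ on the gene's strand from 250 bases before to 50 after the start, from RefSeq on GRCm38.p6, a build other than the mm9 of the expression files. Capitals mark the E-box CANNTG, searched on both strands with TAATTA, a homeodomain core. The regions are chr1:42695518-42695817 for Pou3f3, chr3:132085042-132085341 for Dkk2 and chr6:107529476-107529775 for Lrrn1, all on the plus strand.
Pou3f3: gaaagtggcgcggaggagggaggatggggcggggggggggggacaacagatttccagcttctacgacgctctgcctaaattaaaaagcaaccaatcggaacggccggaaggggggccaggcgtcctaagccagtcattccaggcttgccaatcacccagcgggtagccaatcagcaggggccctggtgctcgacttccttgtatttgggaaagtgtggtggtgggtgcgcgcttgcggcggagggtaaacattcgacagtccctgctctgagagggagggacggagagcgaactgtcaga
Dkk2: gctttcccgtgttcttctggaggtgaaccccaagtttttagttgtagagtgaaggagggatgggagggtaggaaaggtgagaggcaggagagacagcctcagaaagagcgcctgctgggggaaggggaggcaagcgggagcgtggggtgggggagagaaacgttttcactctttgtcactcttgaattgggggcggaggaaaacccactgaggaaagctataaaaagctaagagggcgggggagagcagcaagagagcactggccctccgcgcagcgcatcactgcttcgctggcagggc
Lrrn1: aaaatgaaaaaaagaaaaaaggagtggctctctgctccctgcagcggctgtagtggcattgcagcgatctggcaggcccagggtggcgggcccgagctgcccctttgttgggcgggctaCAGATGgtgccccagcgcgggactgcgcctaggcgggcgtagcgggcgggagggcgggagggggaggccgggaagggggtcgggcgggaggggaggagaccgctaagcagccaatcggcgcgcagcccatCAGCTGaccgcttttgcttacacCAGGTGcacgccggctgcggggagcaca
Lrrn1 held 3 E-boxes, and Pou3f3 and Dkk2 held neither motif in this window. CANNTG was in 72.1% of all 27025 promoters of this length, in 24 of the 35 found for the genes 2-fold higher in the mutant lower molar (68.6%) and in 16 of the 31 for those higher in the upper molar (51.6%). TAATTA was in 5.31% of all promoters, in 1 of the 35 and in 0 of the 31. A match describes letters and is not a site of binding.

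Other factors of the dental mesenchyme split between the molars. Osr1, a zinc finger factor (chromosome 12, 9581248 to 9588306, mm9), had 50.1 FPKM in the mutant lower and 20.9 in the mutant upper molar, and 22.6 and 6.81 in the controls. Its difference was 1.22 in the mutant and 1.60 in the control (limma, adjusted p = 0.00066). Its relative Osr2, which limits teeth to a single row, had 85.8 and 56.0 FPKM in the mutant, a difference of 0.61 that the joint test did not call (limma, adjusted p = 0.0908). Pax9, required for teeth to pass the bud stage, had 108 FPKM in the mutant lower and 74.9 in the mutant upper molar, and 84.9 and 57.4 in the controls (limma, adjusted p = 0.0403). Both Osr1 and Pax9 were therefore higher in the lower molar with and without Bmp4. Msx1 went the other way, 98.4 against 135 FPKM in the mutant, a difference of -0.45 that was not called (limma, adjusted p = 0.222), and Msx2 fell under the filter at 0.399 and 0.783 FPKM. Barx1, a molar-field factor, had 62.7 FPKM in the mutant lower and 118 in the mutant upper molar, with a difference of -0.91 against -0.38 in the control (limma, adjusted p = 0.0584). Lhx6, a LIM homeobox factor of oral mesenchyme, was lower in both lower molars by 0.46 and 0.64 (limma, adjusted p = 0.0447).

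Of 34 odontogenic transcription factors listed, 28 passed the filter; 9 were higher in the mutant lower and 19 in the mutant upper molar, a split near that of all genes (36.6% and 63.4%), with a median of -0.23 beside -0.07 for all genes. The control pair gave 8 and 20 and a median of -0.14. limma called 3 higher in the lower and 5 higher in the upper molar, beside 0.674% and 0.684% of all genes. In the list of mandibular identity and the endothelin axis, which pattern the lower jaw, 13 of 23 members passed. Of these 3 were 2-fold higher in the lower molar, beside 0.481% of all genes, namely Dlx5, Dlx6 and Dlx6os1. Dlx6 and Dlx6os1 overlap, so they are not separate in this count. Unc5c, a netrin receptor gene in that list, was also higher in the lower molar, by 0.92 in the mutant and 0.62 in the control (limma, adjusted p = 0.0362). Of the 13 members 6 were higher in the mutant lower and 7 in the mutant upper molar, the side of 63.4% of all genes. The median was -0.19 in both genotypes. By limma 4 were called on the lower and 2 on the upper side, beside 0.674% and 0.684% of all genes. Cited1, a transcriptional coregulator placed in that list, had 6.59 FPKM in the mutant lower and 25.2 in the mutant upper molar (controls 7.55 and 24.6; limma, adjusted p = 0.000197). Of 24 genes of upper jaw position 14 passed, 7 higher in each molar. Shox2, a homeobox factor of that list, had 31.6 FPKM in the mutant lower and 14.5 in the mutant upper molar (limma, adjusted p = 0.00222). None of the 15 Hox genes passed, as in the first arch, which lacks Hox expression, and their summed level was at most 0.0492 FPKM.

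Among secreted signals, 4 of 8 inhibitors of the Wnt pathway were called higher in the lower molar by limma, beside 0.674% of all genes. Wnt proteins promote tooth growth, and this list holds proteins that bind Wnts or their receptors outside the cell. Dkk2, which blocks the Wnt receptors Lrp5 and Lrp6 (chromosome 3, 131748256 to 131843268, mm9), had 19.7 FPKM in the mutant lower and 4.41 in the mutant upper molar, and 10.2 and 2.61 in the controls. Both lower libraries were above both upper ones and the mutant lower was the highest of the 4, with differences of 1.94 (counting SE 0.09) and 1.63 and limma 1.79 ± 0.12 (SE), adjusted p = 0.000197. Wif1, which binds Wnt proteins, had 4.43 and 1.28 FPKM in the mutant (3.996 and 1.33 in the controls). Sfrp1, a soluble decoy related to the Wnt receptors, had 63.0 and 29.9 FPKM (49.2 and 25.6). limma called both at adjusted p = 0.00246. Apcdd1, a membrane-bound inhibitor, was higher in the lower molar by 0.62 in the mutant and 0.55 in the control (limma, adjusted p = 0.0405).

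The other 4 inhibitors were not called. Sfrp2 had 256 FPKM in the mutant lower and 254 in the mutant upper molar, a difference of 0.01, against 157 and 129 in the controls. Sostdc1, an inhibitor of Wnt and BMP signals, had 63.8 and 74.4 FPKM (difference -0.22). Dkk3 had 11.3 and 17.97 FPKM (difference -0.63; limma, adjusted p = 0.21). In all 8 of 14 listed inhibitors passed. In the mutant 5 were higher in the lower and 3 in the upper molar, beside 36.6% and 63.4% of all genes. The control pair gave 7 and 1, beside 49.4% and 50.6%. The mutant median was 0.32 beside -0.07 for all genes, and the control median was 0.42. Wnt ligands and receptors were balanced, with 20 of 30 passing, 8 higher in the lower and 12 in the upper molar, a median of -0.07 and no call by limma (2 at unadjusted p under 0.05). Rspo2, which raises the response to Wnt, was the exception at 2-fold, with 2.94 FPKM in the mutant lower and 0.455 in the mutant upper molar, against 0.289 and 0.209 in the controls. It was high in 1 library of the 4, and its mean over them was too low for the joint test. Of 22 Wnt effectors and targets 17 passed, with 10 higher in the lower molar, beside 36.6% of all genes, and a median of 0.03. Lef1 and Axin2, both read as marks of Wnt response, had differences of -0.42 and -0.13. Tnfrsf19, a receptor and Wnt target, had 18.5 and 10.3 FPKM (limma, adjusted p = 0.00663).

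**Figure D3:**
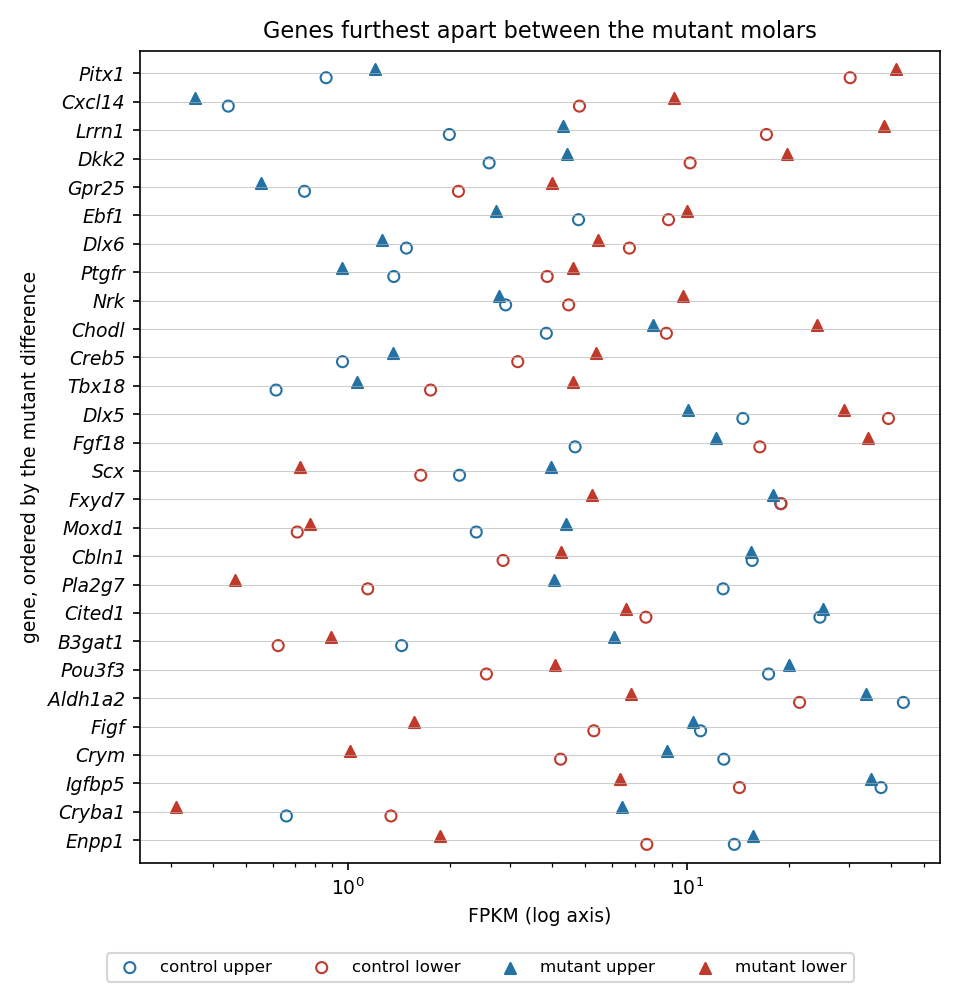
FPKM on a log axis of the 14 genes with the largest lower and the 14 with the largest upper difference in the mutant pair among those averaging 2 FPKM or more without provisional or pseudogene symbols, in each of the 4 pooled libraries (red lower, blue upper, filled triangles mutant, open circles control). In Pitx1, Cxcl14, Lrrn1, Dkk2, Dlx5, Dlx6 and Fgf18 both lower libraries lie above both upper ones; Fxyd7 is low in the mutant lower library alone, at 5.26 FPKM against 17.95 to 18.9.

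Several further genes of the lower side code for signals or surface proteins. Cxcl14, a chemokine, had 9.13 FPKM in the mutant lower and 0.354 in the mutant upper molar, and 4.81 and 0.444 in the controls. Its difference was 2.90 in the mutant and 2.01 in the control (limma, adjusted p = 0.000374). Lrrn1, a leucine-rich repeat membrane protein, had 38.1 and 4.30 FPKM in the mutant and 17.1 and 1.99 in the controls. Each mutant library was thus above the control library of the same molar, and the differences were 2.88 and 2.60 (limma, adjusted p = 1.09e-05). Fgf18, a growth factor ligand, had 34.0 and 12.1 FPKM in the mutant and 16.4 and 4.67 in the controls (limma, adjusted p = 0.000305). Chodl, a lectin-like membrane protein, had 24.2 and 7.95 FPKM in the mutant and 8.68 and 3.84 in the controls (limma, adjusted p = 0.00246). In these 4 genes both lower libraries were above the upper library of the same genotype. Ebf1, Creb5, Tbx18 (transcription factors), Ptgfr and Gpr25 (receptors) had mutant differences between 1.44 and 1.68 and control differences between 0.76 and 1.08, and all 5 were called by limma. Nrk, a kinase, had 9.69 FPKM in the mutant lower molar and between 2.79 and 4.47 in the other 3 libraries, and was not called (limma, adjusted p = 0.0564).

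Some genes of the retinoic acid pathway were higher in the upper molar. Retinoic acid is made from retinal by Aldh1a2, carried in the cell by Crabp1 and Crabp2, and limited by Dhrs3, which turns retinal back to retinol. Aldh1a2 (chromosome 9, 71063596 to 71144050, mm9) had 6.82 FPKM in the mutant lower and 33.6 in the mutant upper molar, and 21.4 and 43.4 in the controls. The mutant lower library was the lowest of the 4, with differences of -2.15 (counting SE 0.10) in the mutant and -0.98 in the control (limma, adjusted p = 0.00907). Dhrs3 had 0.578 and 2.79 FPKM in the mutant and 0.989 and 5.68 in the controls (limma, adjusted p = 0.00201). Rarb, a receptor that retinoic acid induces, had 1.45 and 3.80 FPKM in the mutant and 2.16 and 4.06 in the controls (limma, adjusted p = 0.0184). All 3 were higher in both upper molars. Crabp1 ran against them, with 42.1 FPKM in the mutant lower molar and between 14.1 and 16.4 in the other 3 libraries, so its difference of 1.31 rested on that library (0.19 in the control; limma, adjusted p = 0.176). Of 18 listed genes 12 passed, 4 higher in the lower and 8 in the upper molar, a split near that of all genes (36.6% and 63.4%), with a median of -0.15 beside -0.04 in the control. limma called 0 on the lower and 3 on the upper side, beside 0.674% and 0.684% of all genes.

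The upper side was otherwise led by enzymes and secreted proteins. Enpp1, which makes the mineralisation inhibitor pyrophosphate, had 1.87 FPKM in the mutant lower and 15.6 in the mutant upper molar, and 7.60 and 13.8 in the controls. Igfbp5, a binding protein of insulin-like growth factors, had 6.34 and 34.9 FPKM in the mutant and 14.3 and 37.3 in the controls. Figf, the lymphatic growth factor VEGF-D, had 1.57 and 10.4 FPKM in the mutant and 5.31 and 10.9 in the controls. In these 3 the upper libraries of both genotypes were alike and the mutant lower library was the lowest, and limma called each (adjusted p = 0.0375, 0.00222 and 0.0139). Crym, a thyroid hormone binding protein, had 1.01 and 8.73 FPKM in the mutant (4.24 and 12.8 in the controls; limma, adjusted p = 0.00156). Cbln1, a secreted synaptic protein, and Pla2g7, which breaks down platelet-activating factor, had larger differences in the control than in the mutant, -2.10 against -1.64 and -2.68 against -1.78. Fxyd7, a regulator of the sodium pump, had 5.26 FPKM in the mutant lower molar and between 17.95 and 18.9 in the other 3 libraries. Scx, a tendon factor, had 0.722 and 3.97 FPKM in the mutant and 1.64 and 2.13 in the controls. Neither Fxyd7 nor Scx was called (limma, adjusted p = 0.308 and 0.172).

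Genes that respond to BMP signalling were mostly higher in the upper molar in both genotypes, and few passed the test. Id proteins are direct targets that hold back differentiation, and Id3 had 21.4 FPKM in the mutant lower and 42.3 in the mutant upper molar, and 60.1 and 81.2 in the controls. The mutant lower library was the lowest of the 4, with differences of -0.95 (counting SE 0.10) and -0.43 (limma, adjusted p = 0.0468). Id1 had 1.99 and 4.10 FPKM in the mutant, while the controls had 5.10 and 5.31 (difference -0.77 against -0.05; limma, adjusted p = 0.396). Id4 was lower in both lower molars, by 0.80 and 0.87 (limma, adjusted p = 0.0234). Hey1, a repressor that answers to BMP and Notch, had 3.53 and 9.68 FPKM in the mutant and 18.2 and 23.0 in the controls (difference -1.24 against -0.32; limma, adjusted p = 0.0976). Smad9, a signal carrier of the pathway, had 1.15 and 2.42 FPKM in the mutant (limma, adjusted p = 0.14). Smad6 and Smad7, feedback inhibitors, were higher in the mutant lower molar by 0.22 and 0.27.

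Of 18 BMP response genes 13 passed, 3 higher in the mutant lower and 10 in the mutant upper molar, where 63.4% of all genes were higher. Their median was -0.45 beside -0.07 for all genes, and -0.36 after rescaling by median ratios. In the control pair 12 of 13 were higher in the upper molar, beside 50.6% of all genes, at a median of -0.24. limma called 1 on the lower side, Dlx5, and 2 on the upper side, Id3 and Id4, beside 0.674% and 0.684% of all genes. Ligands, receptors and antagonists of the BMP family had a median of -0.20 over 20 of 29 members, 14 of them higher in the upper molar. Bmp2, a related ligand, had 2.41 FPKM in the mutant lower and 0.636 in the mutant upper molar (controls 1.30 and 0.598; limma, adjusted p = 0.0714). Nbl1, a secreted BMP antagonist, had 7.44 and 3.08 FPKM in the mutant and 3.10 and 1.10 in the controls (limma, adjusted p = 0.00411). Bmp6 had 7.85 and 15.4 FPKM in the mutant and 10.54 and 10.7 in the controls (limma, adjusted p = 0.375). Of the BMP ligands named here, then, Bmp2 was higher in the mutant lower and Bmp6 in the mutant upper molar.

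The Notch, FGF, hedgehog and activin pathways held a few differences each. In the Notch list 9 of 16 passed and 2 were 2-fold higher in the mutant upper molar (0.452% of all genes), Hey1 and Hes1, with no call by limma (2 at unadjusted p under 0.05). Hes1, a Notch target, had 2.495 and 6.42 FPKM in the mutant and 6.64 and 6.999 in the controls (limma, adjusted p = 0.298). Of 21 FGF ligands, receptors and response genes 15 passed, 11 higher in the upper molar against 63.4% of all genes, with a median of -0.20 beside 0.03 in the control. Spry4, a feedback inhibitor of FGF signalling, had 7.80 FPKM in the mutant lower and 16.1 in the mutant upper molar, and 7.77 and 8.32 in the controls, so the mutant upper library stood above the other 3 (limma, adjusted p = 0.288). Egr1, an immediate early gene, had the same form, with 2.59 and 8.25 FPKM in the mutant and 3.76 and 3.39 in the controls (limma, adjusted p = 0.434). Hedgehog genes had a median near 0 (0.002), with Gas1 higher in the lower molar (limma, adjusted p = 0.0375) and Foxf2 in the upper molar (limma, adjusted p = 0.0392). Inhba, the activin subunit made by molar mesenchyme, had 55.8 FPKM in the mutant lower and 97.9 in the mutant upper molar, and 71.3 and 81.8 in the controls (limma, adjusted p = 0.185).

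Of the bone and matrix genes measured, those that limma called were higher in the lower molar, 4 of 9 and 6 of 27, beside 0.674% of all genes. Col1a1 counts in both lists, and Dlx5, named above, is among the bone calls. Of 15 genes of the osteoblast lineage 9 passed, 7 of them higher in the mutant lower molar, beside 36.6% of all genes. Their median was 0.64 beside -0.07 for all genes, and 0.52 in the control. Alpl, the alkaline phosphatase of mineralising cells, had 4.99 FPKM in the mutant lower and 1.99 in the mutant upper molar (controls 7.13 and 4.53; limma, adjusted p = 0.0276). Sparc, a matrix glycoprotein, had 158 and 79.3 FPKM in the mutant and 125 and 87.0 in the controls (limma, adjusted p = 0.0228). Col1a1, the main collagen chain of bone, had 165 and 105 FPKM (limma, adjusted p = 0.0245). Sp7, a factor that commits cells to bone, had 4.25 and 1.92 FPKM in the mutant but 7.04 and 8.92 in the controls, and Runx2, which acts before it, had 31.0 and 39.5 FPKM in the mutant. The list was thus not uniform, and the early factor Runx2 was lower in both lower molars (limma, adjusted p = 0.203). Bglap, a marker of mature osteoblasts, was at 0 in all libraries.

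In the mesenchymal matrix list 27 of 30 passed. Of these 20 were higher in the mutant lower and 7 in the mutant upper molar, beside 36.6% and 63.4% of all genes. The median was 0.29 against 0.21 in the control, and the 6 calls by limma lay on the lower side. Cd44, a hyaluronan receptor, had 7.58 FPKM in the mutant lower and 2.23 in the mutant upper molar, and 8.46 and 2.62 in the controls (limma, adjusted p = 0.000476). Fbn2 and Dcn, a fibrillin and a proteoglycan, were higher in the lower molar by 0.72 and 0.67 in the mutant and by 0.66 and 0.63 in the control (limma, adjusted p = 0.0151 and 0.0183). Tnn, a tenascin, ran the other way, with 1.93 and 6.18 FPKM in the mutant and 7.43 and 8.62 in the controls (limma, adjusted p = 0.185). Of 15 imprinted growth genes 14 passed, with a median of 0.38 in the mutant and 0.34 in the control. Igf2, a growth factor expressed from the paternal copy, had 360 FPKM in the mutant lower and 196 in the mutant upper molar and 362 and 240 in the controls (limma, adjusted p = 0.014). H19, its maternally expressed neighbour on chromosome 7, had 273 and 164 FPKM in the mutant (limma, adjusted p = 0.018).

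Cartilage genes were mostly under the filter, with 4 of 16 passing. Sox6 had 1.16 FPKM in the mutant lower and 4.14 in the mutant upper molar, and 3.33 and 7.03 in the controls (limma, adjusted p = 0.00474). Its partner Sox9 had 1.60 and 3.43 FPKM in the mutant and 5.04 and 8.78 in the controls (limma, adjusted p = 0.018). Both were higher in the upper molar of each genotype, while their target Col2a1 had 6.23 and 4.17 FPKM in the mutant and was not called (limma, adjusted p = 0.124). Among 33 axon guidance genes, which also position migrating cells, 27 passed at a median of 0.08, and Plxna2, a semaphorin receptor, had 1.37 and 4.42 FPKM in the mutant and 2.87 and 7.05 in the controls (limma, adjusted p = 0.00237).

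**Figure D4:**
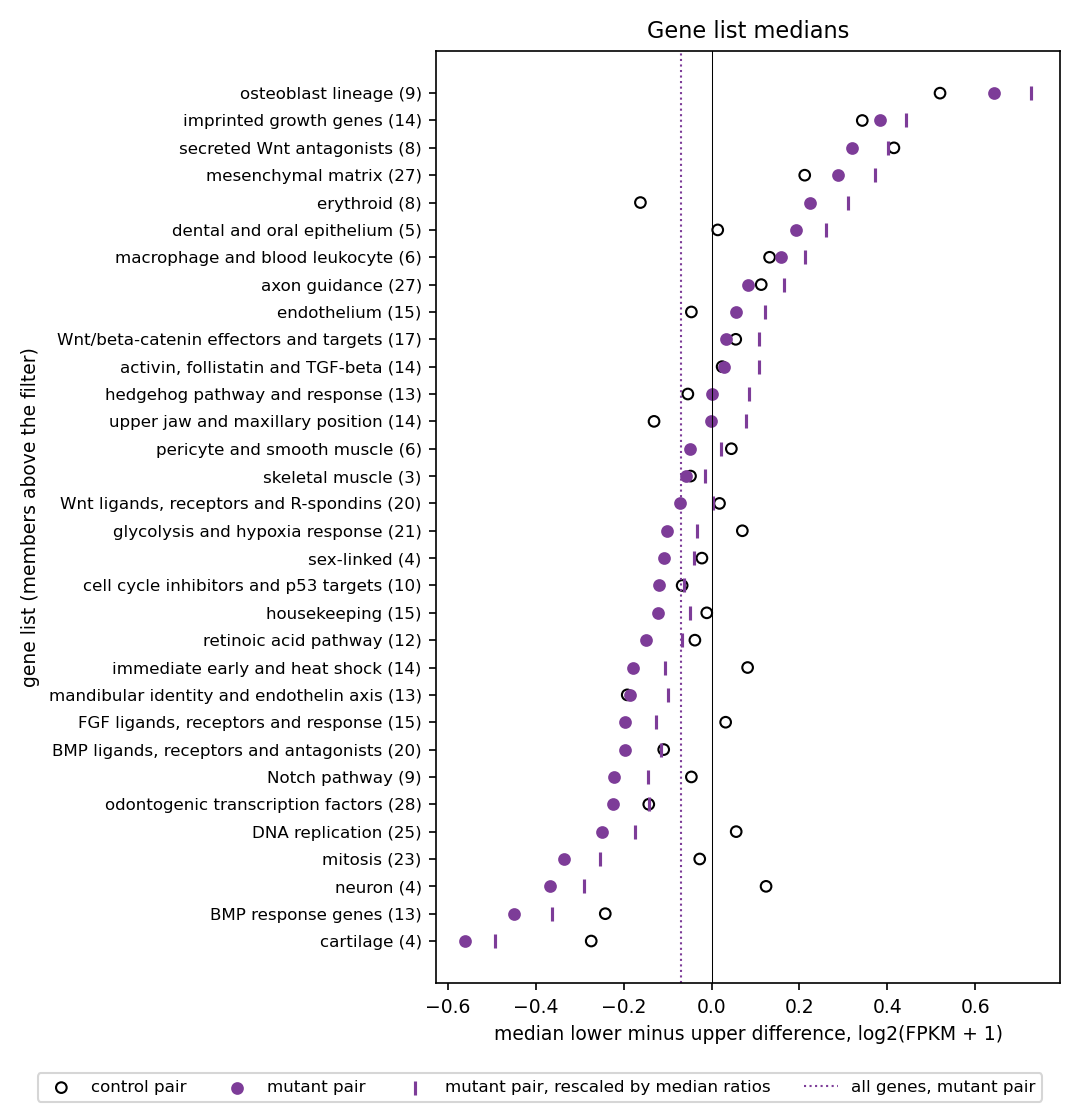
Median lower minus upper difference, log2(FPKM + 1), of each gene list with at least 3 members above the filter (number in brackets), in the mutant pair (filled), the control pair (open) and the mutant pair rescaled by median ratios (bars); the dotted line is the median of all genes in the mutant pair, -0.07. Osteoblast, imprinted, Wnt antagonist and matrix lists lie on the lower molar side in both genotypes, and mitosis and DNA replication lie at -0.34 and -0.25 in the mutant but near 0 in the control.

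Cell cycle genes leaned toward the mutant upper molar, by small amounts and nearly all together. Of 23 mitosis genes 22 were higher in the mutant upper molar, against 63.4% of all genes, with a median of -0.34 and Kif23 as the exception. In the control pair 16 of 23 were higher in the upper molar, with a median of -0.03. Of 25 DNA replication genes 22 were higher in the mutant upper molar, with a median of -0.25, against 9 of 25 and a median of 0.06 in the control. After rescaling by median ratios the medians were -0.26 and -0.18 and the counts 21 of 23 and 20 of 25. No member of either list differed 2-fold, and limma called none over both genotypes (4 mitosis and 3 replication genes at unadjusted p under 0.05). At 5 to 20 FPKM the middle 95% of all mutant differences ran from -0.55 to 0.42. Cdc20 of the mitosis list (-0.61) and Rrm2 of the replication list (-0.58) lay below that range. The change of the lists between genotypes was not tested.

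Single genes showed the same picture. Cdc20, which starts the exit from mitosis, had 10.2 FPKM in the mutant lower and 16.1 in the mutant upper molar, and 15.3 and 15.5 in the controls. Top2a, a topoisomerase of dividing cells, had 45.4 and 57.7 FPKM in the mutant and 65.8 and 62.8 in the controls. Pcna, the sliding clamp of DNA polymerase, had 47.0 and 66.2 FPKM in the mutant and 60.4 and 63.3 in the controls. In these 3 genes the mutant lower library was the lowest and the other 3 were closer together. The DNA replication list had that form when summed, with 312 and 381 FPKM in the mutant and 393 and 375 in the controls. The mitosis list summed to 462 and 578 FPKM in the mutant and 648 and 676 in the controls, so its mutant upper sum was also below both controls. Mki67, the Ki-67 antigen, had 41.2 and 47.8 FPKM in the mutant and 64.0 and 64.7 in the controls, so that both mutant libraries were below both controls. Cdkn1c, an imprinted inhibitor of cell division, had 89.7 and 55.6 FPKM in the mutant and 71.9 and 65.2 in the controls (limma, adjusted p = 0.264). Its list of cell cycle inhibitors and p53 targets did not share that direction. Of 10 members passing, 2 were higher in the mutant lower and 8 in the mutant upper molar, beside 36.6% and 63.4% of all genes. The median was -0.12 in the mutant and -0.07 in the control, where 5 were higher in each molar. Housekeeping genes, 15 in number, had a median of -0.12 in the mutant and -0.01 in the control, and -0.05 in the mutant after rescaling.

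**Figure D5:**
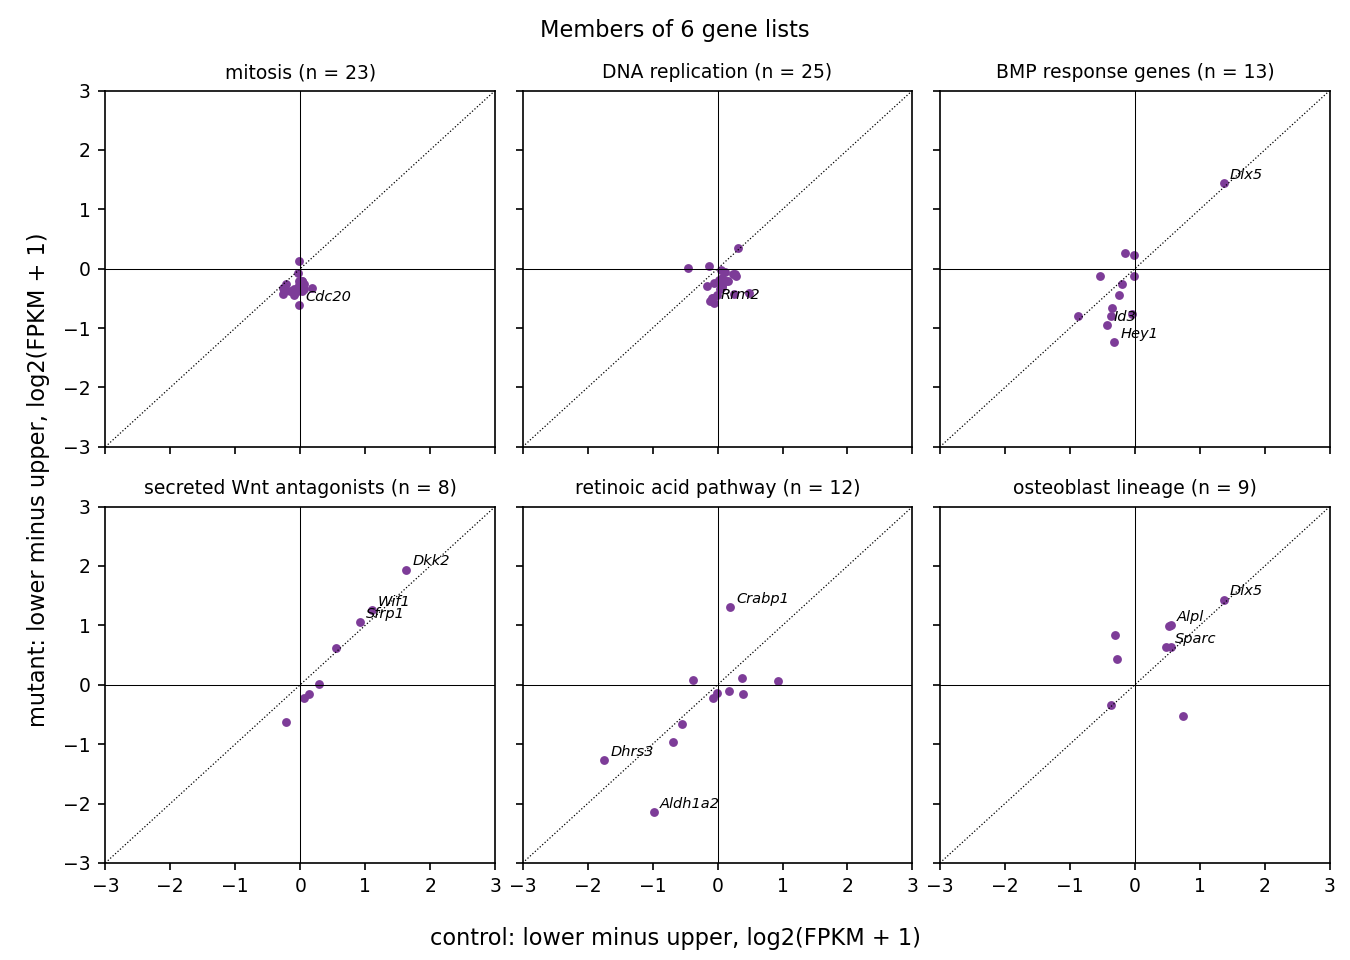
Each member above the filter of 6 gene lists by its lower minus upper difference in the control pair (x axis) and the mutant pair (y axis), log2(FPKM + 1). Mitosis and DNA replication members lie mostly below 0 in the mutant (22 of 23 and 22 of 25) and on both sides of 0 in the control. Among Wnt antagonists, Dkk2 (1.94 in the mutant and 1.63 in the control), Wif1, Sfrp1 and Apcdd1 lie just above the line of equal differences. Sfrp2, Sostdc1 and Dkk3 lie below that line.

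The summed markers of each other cell type were less than 2-fold apart between the mutant molars, while some single members, such as Gap43, stood further apart. Endothelial markers passed in 15 of 16 cases and summed to 68.8 FPKM in the mutant lower and 62.2 in the mutant upper molar (controls 73.8 and 80.9). Erythroid genes, 8 of 13 passing, summed to 1094 and 937 FPKM (922 and 1038 in the controls), and macrophage genes, 6 of 12, to 17.6 and 14.6 (16.1 and 13.9). Of those passing, 6 erythroid and 6 macrophage genes were higher in the mutant lower molar, against 1 and 5 in the control pair. Over all genes these shares were 36.6% and 49.4%. Neuronal genes, 4 of 15, summed to 43.7 and 52.0 FPKM (39.2 and 43.2), with Pou4f1 and Prph at 0. Gap43, a growth cone protein, was 6.46 against 13.6 FPKM in the mutant and 6.72 against 11.3 in the controls (limma, adjusted p = 0.0127). Skeletal muscle markers, 3 of 17, summed to 5.60 and 5.42 FPKM with Myf6 at 0, and pericyte markers, 6 of 12, to 42.2 and 45.9. Schwann cell and glial markers, 1 of 11, summed to 11.2 and 9.21 FPKM. The sums of endothelial, erythroid and macrophage markers were therefore higher, and that of neuronal markers lower, in the mutant lower molar, and their part in the differences above was not tested. Within the epithelial list the keratins Krt14 and Krt17 and the epithelial factor Trp63 were higher in the lower molar by 0.19, 0.24 and 0.57.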

How the data were processed

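The data were 4 RNA sequencing libraries of mouse molar mesenchyme, 1 per genotype and molar. RNA from captured tissue was amplified with the NuGEN Ovation system before Nextera library preparation, per the labels' protocols, and amplification can distort single values. Reads were aligned to mm9 with TopHat 1.4.1 and Bowtie 0.12.7, per the submitters' processing notes. The authors deposited FPKM per RefSeq transcript in the layout of Cufflinks output, per the file headers. The deposited coverage signal of each transcript, times its length over 44.2 bases per read, gave approximate read numbers. How multiply aligned reads were shared, the strand setting and the Cufflinks version are not given in the sources used here.

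FPKM was summed per gene symbol. Genes with a mean under 1 FPKM, a longest transcript under 300 bases (79 genes otherwise passing) or a failed estimate (18 genes) were left out. Differences used a pseudocount of 1. limma 3.58.1 in R 4.3.3 was fitted on log2(FPKM + 1) of 10383 genes in all 4 libraries, with molar and genotype terms, an intensity trend, two-sided tests and Benjamini-Hochberg adjustment, and was checked on simulated data. The interaction of molar and genotype could not be tested with 1 library in each group.

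Named genes were 18 fixed names, the 14 genes furthest apart each way in the mutant pair at a mean of at least 2 FPKM without provisional, small RNA or pseudogene symbols, up to 6 each way with the largest excess over the control pair, and up to 4 members of each of 34 lists; other list members named in the text were chosen after their values were seen. Members and lists were chosen with earlier results of these data known. A few genes are not reported here. RefSeq promoters matched 106 of the 154 named genes.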

Additional observations from a re-analysis of the deposited data

Results flagged for a closer look

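Among the named genes, 6 had molar differences of opposite sign in the 2 genotypes, with at least 0.5 on the log2 scale in the mutant and at least 0.1 in the control; with 1 library in each group the difference between genotypes was not tested. Cryba1, a lens crystallin, had -2.504 in the mutant and 0.50 in the control, with 0.312 FPKM or about 3 reads in the mutant lower and 6.44 FPKM in the mutant upper molar. C1qtnf3, a secreted relative of complement C1q, had -1.32 and 0.48. Egr1, an immediate early gene that responds quickly to handling and to growth factors, had -1.37 and 0.11. Sp7, the osteoblast factor, had 0.85 and -0.30. Egfl7, an endothelial secreted protein, had 0.64 and -0.39. Nefl, a neurofilament chain, had -0.62 and 0.62, with 4.15 and 6.89 FPKM in the mutant lower and upper molar and 1.52 and 0.632 in the controls.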

How the results depend on the processing

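Counts depended on the handling of weakly expressed genes. Genes at least 2-fold higher in the mutant lower and upper molar, 50 and 47 as reported, were 97 and 122 with a pseudocount of 0.1, 67 and 81 with 0.5, 22 and 21 at a mean of at least 5 FPKM, 77 and 66 with no minimum transcript length, and 126 and 127 when the longest transcript alone was used. All 50 and 47 kept their side at either pseudocount, and 48 and 43 did with the longest transcript. The 70 and 71 limma calls over both genotypes were 0 and 0 with no filter on low values (1297 genes at unadjusted p under 0.05), 42 and 39 with no minimum length, 50 and 32 after rescaling by median ratios, and 6 and 5 with no term for genotype. Leaving out each library in turn, with no genotype term and the lone library of a molar assumed to vary like the other pair, gave between 2 and 46 calls on the lower side and between 3 and 35 on the upper side; the lowest came without the control lower library (2 and 3) and without the mutant lower library (2 and 4). In those fits the molars also differ in genotype makeup by construction, and Id3, -0.69 as reported, ran from -1.41 without the control lower library to 0.0361 without the mutant lower library. Pitx1 was called in 11 of 12 alternatives, and Pou3f3 and Cbln1 in 10 of 12. No paired analysis was possible by animal because the labels do not say whether the same embryos gave both molars; the genotype term of the limma fit sets lower against upper within each genotype, and the 6 and 5 calls are those without it. The joint calls therefore rest on few libraries, depth limits genes under about 0.1145 FPKM, and no value measures variation between embryos.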

Other observations

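Some genes outside the reported lists, chosen after their values were seen, were also 2-fold apart. Ambn, which codes for an enamel matrix protein, had 3.50 FPKM in the mutant lower and 0.278 in the mutant upper molar, and 2.85 and 1.21 in the controls (limma, adjusted p = 0.0207). Tbx15, a T-box factor of skeletal condensations, had 16.1 and 6.07 FPKM in the mutant and 7.96 and 3.00 in the controls (limma, adjusted p = 0.00104). Igfbp2 had 16.7 and 7.18 FPKM in the mutant and 12.2 and 4.64 in the controls (limma, adjusted p = 0.00123), the side opposite to Igfbp5. Tcfap2c, a factor of the AP-2 family, had 8.23 FPKM in the mutant lower and 22.4 in the mutant upper molar, and 11.3 and 16.9 in the controls (limma, adjusted p = 0.0331). Hic1, a transcriptional repressor, had 2.18 and 6.83 FPKM in the mutant and 2.05 and 5.17 in the controls (limma, adjusted p = 0.00246). In all 5 genes the control pair differed in the same direction as the mutant pair.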
